A study of Homo sapiens with 4 samples.

Results

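MHC class I molecules carry peptides cut from proteins inside a cell to its surface, where CD8 T cells and natural killer cells read them. A polymorphic heavy chain, encoded by an HLA gene, folds with the invariant light chain beta-2-microglobulin (B2M). The peptides are made by the proteasome, pumped into the endoplasmic reticulum by the transporter of TAP1 and TAP2, trimmed there by ERAP1 and loaded with the help of tapasin (TAPBP). In many tumours, colorectal cancers among them, parts of this machinery are lost or switched off, and interferon gamma raises most of it together. The 9 genes described here were chosen by symbol: the heavy chains HLA-B, HLA-C, HLA-E and HLA-F, the light chain B2M, and the peptide loading genes TAP1, TAP2, TAPBP and ERAP1. All 9 were found among the 19974 gene symbols of the tables.

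The cells were HCT116, a human colorectal carcinoma line, and all 4 samples were cultures of that line. In 2 of them a non-targeting control siRNA had been transfected (si-NC), and in the other 2 an siRNA against the long non-coding RNA LINC00152 (si-152), in each case at 100 nM and for 36 h. The labels call the 2 samples of a group biological replicates. Total RNA was sequenced, and the values are FPKM, fragments per kilobase of transcript, scaled to the number mapped, so that levels can be compared between genes of unequal length. The siRNA target itself was not analysed here, so how far it was depleted was not checked.

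The summed FPKM of a library lay between 424754 and 534311, between 14589 and 14686 genes were above 0, and the smallest values put the depth of the libraries at 0.901 to 1.04 of that of si-NC replicate 1. The read numbers themselves are unknown. Of 8 colon epithelial markers, EPCAM, KRT8, KRT18, CDH1 and CDX2 were present, KRT20 and CDX1 were listed at 0 in all 4 libraries and VIL1 was near 0, with a summed level of 1509 to 2151 FPKM. The 7 leukocyte markers summed to 1.62 to 4.99 FPKM, most of it CD74, and PTPRC and NKG7 were at 0. The 6 fibroblast markers summed to 7.11 to 8.13 FPKM, nearly all COL1A1, with COL1A2 and DCN at 0, and the 3 endothelial markers to at most 0.0999 FPKM. In bulk RNA, fewer cells that express a gene and less of its RNA per cell cannot be told apart.

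Of the 9 genes, 7 lie in the major histocompatibility complex on the short arm of chromosome 6. In the GRCh38 annotation of GENCODE release 29 they run from HLA-F (chr6:29722775-29738528, plus strand) through HLA-E (chr6:30489467-30494205, plus), HLA-C (chr6:31268749-31272130, minus), HLA-B (chr6:31269491-31357188, minus), TAP2 (chr6:32821833-32838780, minus) and TAP1 (chr6:32845209-32853978, minus) to TAPBP (chr6:33299694-33314387, minus). The annotated HLA-B gene reaches downstream over HLA-C, so the 2 gene models overlap. B2M lies on chromosome 15 (chr15:44711487-44718877, plus) and ERAP1 on chromosome 5 (chr5:96760810-96808100, minus).

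Classical class I genes and B2M are known to share promoter elements: a kappa-B element bound by NF-kappa-B, an interferon-stimulated response element bound by IRF proteins, the site alpha bound by CREB and ATF proteins, and an inverted CCAAT box bound by NF-Y. The RefSeq promoter table (GRCh38.p14) held 10 promoters for 8 of the 9 genes, and HLA-E was not in it. The stretch from 180 to 41 bases before the start is printed for the 3 genes with high levels in HCT116 and for HLA-F, a heavy chain listed at 0, so that the elements can be compared. Capitals mark every match, on either strand, to GGGATTCCC (kappa-B), AAGTGAAA (an interferon response element in part), GAAANNGAAA (interferon-stimulated response element core, N any base), TGACGC (site alpha) or ATTGG (inverted CCAAT). The 2 interferon words can overlap each other. The letters are those of the reference, not of the alleles of HCT116. The windows are chr6:31357220-31357359 (HLA-B, minus strand), chr6:31272133-31272272 (HLA-C, minus), chr6:29723254-29723393 (HLA-F, plus) and chr15:44711337-44711476 (B2M, plus), each 5′ to 3′.
HLA-B: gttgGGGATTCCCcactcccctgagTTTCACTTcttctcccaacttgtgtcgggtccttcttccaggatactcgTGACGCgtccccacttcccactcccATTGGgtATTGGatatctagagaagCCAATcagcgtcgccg
HLA-C: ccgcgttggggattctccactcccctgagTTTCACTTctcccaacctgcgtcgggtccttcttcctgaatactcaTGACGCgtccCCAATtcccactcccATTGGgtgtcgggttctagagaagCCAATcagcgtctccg
HLA-F: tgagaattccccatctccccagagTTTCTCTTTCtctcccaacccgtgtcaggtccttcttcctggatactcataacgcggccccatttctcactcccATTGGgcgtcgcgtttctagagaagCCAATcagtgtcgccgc
B2M: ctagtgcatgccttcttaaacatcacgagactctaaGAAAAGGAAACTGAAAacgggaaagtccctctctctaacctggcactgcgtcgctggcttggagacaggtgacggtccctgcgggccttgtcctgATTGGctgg

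HLA-B alone of the 8 genes held GGGATTCCC in this window, a word found in 0.194% of all 35116 promoters. HLA-B and HLA-C both held AAGTGAAA, found in 0.760% of all promoters, and TGACGC, found in 4.50%. The core GAAANNGAAA stood in the windows of HLA-F, B2M, TAP1 and TAP2, against 1.62% of all promoters. ATTGG, the most common of the words at 22.8% of promoters, was matched 3 times in HLA-B, 3 times in HLA-C, 2 times in HLA-F and 1 time each in B2M and in a promoter of ERAP1. HLA-F, listed at 0, held ATTGG, as did HLA-B, HLA-C and B2M. That 0 is taken as a listed value, not as absence of the transcript, as set out below. No link between these words and the levels is therefore drawn. A missing word says only that these letters are not in the window.

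The 9 genes were listed at 3 levels in HCT116. All but B2M and ERAP1 lie in a stretch of chromosome 6 with many low values, described below, and this order stands under that limit. The light chain and 2 heavy chains were among the most abundant transcripts, ERAP1, TAPBP and TAP2 were at a few FPKM, and HLA-E, HLA-F and TAP1 were at or near 0. B2M was listed at 138.7 and 225.1 FPKM under si-NC replicates 1 and 2 and at 133.2 and 239.6 FPKM under si-152 replicates 1 and 2. HLA-C stood at 112.3 and 168.9 FPKM under si-NC and at 115.4 and 202.0 FPKM under si-152. HLA-B stood at 113.1 and 135.0 FPKM under si-NC and at 103.9 and 171.9 FPKM under si-152. In all 3 genes replicate 2 was the higher library of both groups, and the 2 groups overlapped.

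**Figure D1:**
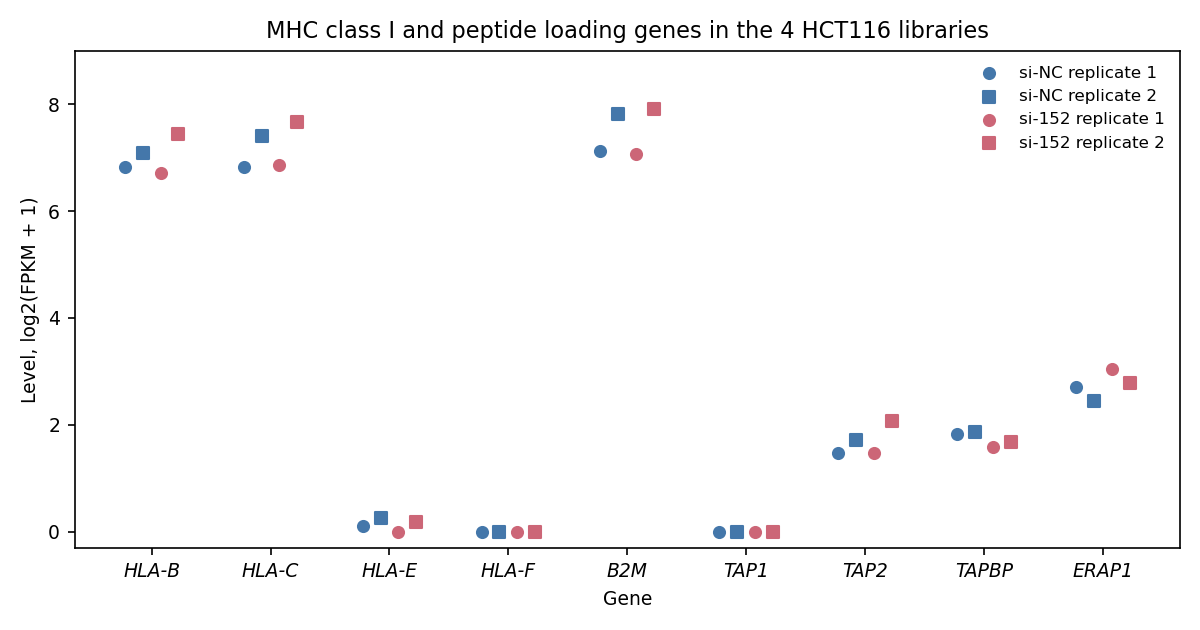
Level of each gene, as log2(FPKM + 1), in the 4 HCT116 libraries, with si-NC in blue, si-152 in red, replicate 1 as circles and replicate 2 as squares. HLA-B, HLA-C and B2M lie at 103.9 to 239.6 FPKM with the squares above the circles, ERAP1, TAPBP and TAP2 lie between 1.78 and 7.21 FPKM, and HLA-E, HLA-F and TAP1 lie at 0 or just above it.

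Mean si-NC levels were 181.9 ± 61.1 FPKM for B2M, 140.6 ± 40.0 FPKM for HLA-C and 124.0 ± 15.5 FPKM for HLA-B (SD, n = 2). Among the 15192 genes with a mean si-NC level above 0, B2M stood at percentile 97.7, HLA-C at 96.9 and HLA-B at 96.5. Neighbours in this order did not differ beyond their spread, as the si-NC values of B2M and HLA-C overlapped and so did those of HLA-C and HLA-B. B2M and HLA-B did not overlap in si-NC, and B2M was above both heavy chains in each of the 4 libraries. Within a library the ratio of HLA-B to HLA-C was 1.01 and 0.799 in si-NC and 0.900 and 0.851 in si-152. The summed FPKM of the 2 heavy chains was 1.63 and 1.35 times that of B2M in si-NC and 1.65 and 1.56 times in si-152, so both ratios moved less between the libraries than the levels did.

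The heavy chain genes are close relatives and can share reads. Stretches of 50 bases were taken at every start position of the longest protein-coding GENCODE transcript. They were sought in the protein-coding transcripts of other genes, and transcripts of other types, such as pseudogenes, were not searched. Of these stretches, 2.47% in HLA-B, 6.58% in HLA-C, 5.13% in HLA-E and 1.51% in HLA-F also occurred in another gene. B2M and ERAP1 shared none. TAP2 shared 35.8%, and the genes that held the shared stretches are not listed here. TAP1 shared 1.07% and TAPBP 4.58%. How reads that match more than 1 gene were counted is not given in the sources used here, and the alleles of HCT116 may differ from the reference, so the levels of the heavy chains and of TAP2 carry that uncertainty.

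The genes that transport, trim and load the peptide were listed far below the light chain. ERAP1, the aminopeptidase that trims peptides in the endoplasmic reticulum, was listed at 5.56 and 4.44 FPKM under si-NC and at 7.21 and 5.89 FPKM under si-152. TAPBP, the bridge between the transporter and the empty class I molecule, was listed at 2.56 and 2.63 FPKM under si-NC and at 2.01 and 2.18 FPKM under si-152. TAP2, a chain of the peptide transporter, was listed at 1.78 and 2.28 FPKM under si-NC and at 1.78 and 3.21 FPKM under si-152. ERAP1 was thus higher in both si-152 libraries than in either si-NC library, TAPBP was lower in both, and TAP2 overlapped between the groups. In si-NC the 3 genes did not overlap one another, and their order was ERAP1, TAPBP, TAP2, at percentiles 48.3, 37.1 and 33.9. In si-152 TAPBP and TAP2 overlapped.

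TAP1, the partner of TAP2 in the transporter, was listed at 0 in all 4 libraries, and so was HLA-F, a non-classical heavy chain. HLA-E, the heavy chain that presents leader peptides to natural killer cells, was listed at 0.0816 and 0.201 FPKM under si-NC and at 0 and 0.132 FPKM under si-152. These 3 genes did not reach 1 FPKM in at least 2 libraries, the minimum for a test, and no fold is given for them. Their low values stand in a stretch of chromosome 6 where genes that every cell uses were listed at 0 as well.

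From the start of HLA-F to the end of TAPBP (chr6:29722775-33314387, 3.59 Mb) the tables held 136 protein-coding genes. Of these, 48 (35.3%) were at 0 in all 4 libraries, against 19.4% of 18299 genes elsewhere in the genome, and 30 (22.1%) reached the minimum for a test, against 58.7% elsewhere. The median gene of the stretch was at 0.0322 FPKM and the median gene elsewhere at 2.71 FPKM. The flank of 2 such widths on the centromeric side, with 79 genes, had 10.1% at 0 and a median of 4.81 FPKM. The flank on the telomeric side, with 123 genes, had 39.8% at 0 and a median of 0.206 FPKM, so a high share at 0 was seen on that side too. Many of the genes at 0 in that flank were histone genes and olfactory receptor genes. The ends of the stretch were set by the genes chosen, and low means over the 4 libraries also stood just beyond them. On the HLA-F side TRIM27 had 0.0478 FPKM and GABBR1 0. On the TAPBP side ZBTB22 had 0.170, DAXX 0.531 and KIFC1 0.403 FPKM, and after these PHF1 had 3.86 and CUTA 13.4 FPKM. HLA-C and HLA-B were the highest genes of the stretch, ahead of RPS18 and C6orf48, and only 9 genes of the 136 (6.62%) averaged 10 FPKM or more, against 29.3% elsewhere.

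**Figure D2:**
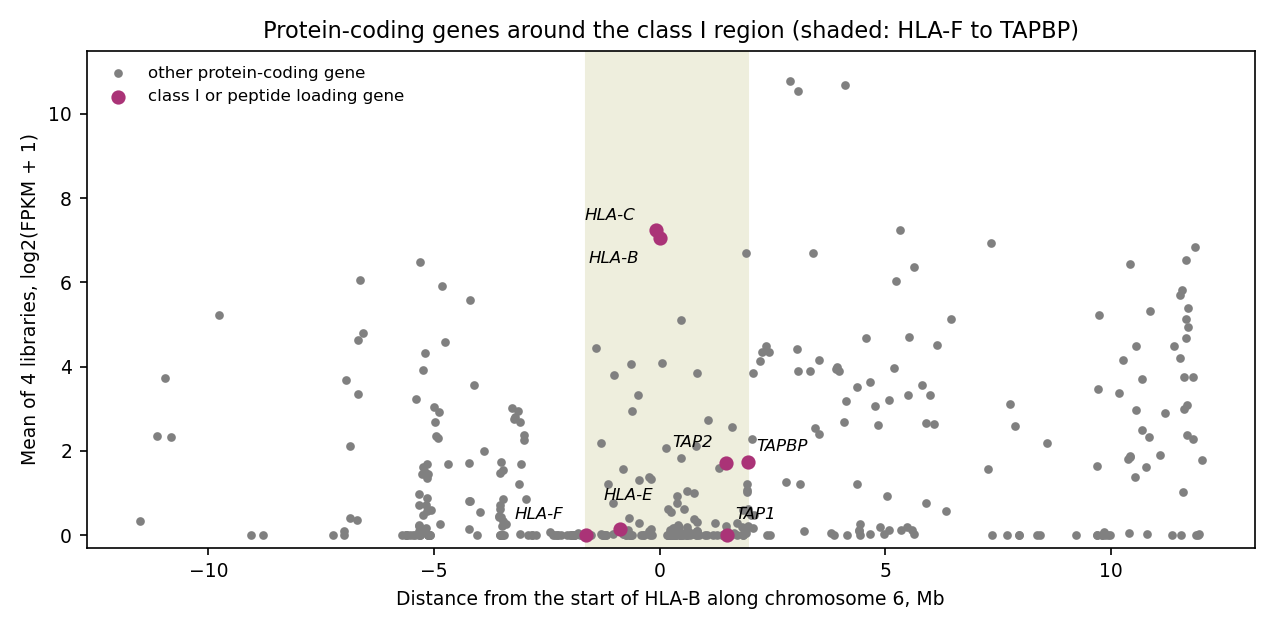
Mean level over the 4 libraries, as log2(FPKM + 1), of protein-coding genes by their distance in Mb from the start of HLA-B, with the class I and peptide loading genes in purple and the stretch from HLA-F to TAPBP shaded. HLA-C and HLA-B stand above every other gene of the shaded stretch, in which 35.3% of genes lie at 0.

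Genes of the stretch whose products work in fixed complexes were set beside their partners elsewhere. These genes were chosen after their values were seen. LSM2, a chain of the LSM ring of RNA decay and splicing, was at 0 in all 4 libraries while the median of 6 other LSM genes was 52.1 to 81.5 FPKM. NELFE was at 0 while the other chains of the negative elongation factor had a median of 25.9 to 31.1 FPKM, and MRPS18B was at 0 while 5 other proteins of the small mitochondrial ribosomal subunit had a median of 29.4 to 41.4 FPKM. FLOT1 was at 0 and its partner FLOT2 at 28.2 to 33.6 FPKM. CSNK2B, the regulatory chain of casein kinase 2, was at 0 to 0.196 FPKM and its catalytic chains had a median of 39.3 to 52.2 FPKM.

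The remaining examples were low but not at 0. GTF2H4 was at 0.179 to 0.280 FPKM against 5.99 to 7.87 FPKM for partners in TFIIH, and PFDN6 at 0.524 to 1.45 FPKM against 35.7 to 56.0 FPKM for other prefoldin chains. RPS18 reached 60.8 to 140.5 FPKM, against 1468 to 2172 FPKM for 5 other proteins of the small ribosomal subunit. The 0 of TAP1 and of HLA-F is therefore given as a listed value, not as absence of the transcript, and the levels of all 7 genes of the stretch, HLA-B and HLA-C with their percentiles and their ratio to B2M among them, stand under the same limit. The reason for the low values was not tested.

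**Figure D3:**
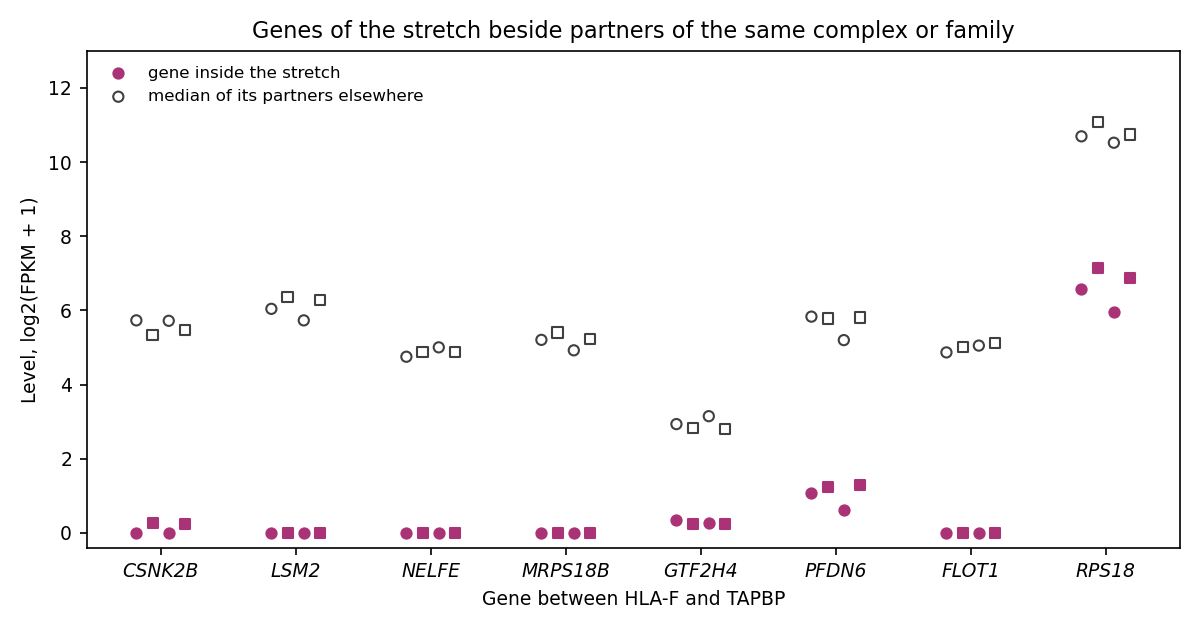
Level, as log2(FPKM + 1), of 8 genes between HLA-F and TAPBP (filled) and the median of their partners in the same complex or family outside the stretch (open), in the order si-NC 1, si-NC 2, si-152 1 and si-152 2, with circles for replicate 1 and squares for replicate 2. Every gene of the stretch lies below its partners in every library, and LSM2, NELFE, MRPS18B and FLOT1 lie at 0.

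The question of the design was which transcripts change when LINC00152 is depleted. No class I or peptide loading gene passed the test. The 6 genes with at least 1 FPKM in 2 or more libraries entered a limma fit of log2(FPKM + 1) over 11222 genes, and 0 of the 6 had an unadjusted p under 0.05, in either direction. Over all genes tested 1.89% were called higher and 2.50% lower in si-152 at that threshold, and 0.0178% after Benjamini-Hochberg adjustment. The limma adjusted p was 1.00 for each of the 6 genes. A p that misses the threshold does not show that the levels were equal.

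ERAP1 had the largest difference of the 6, and it was alike in both same-numbered pairs. On the log2(FPKM + 1) scale si-152 was higher by 0.32 in replicate 1 and by 0.34 in replicate 2, or 1.30 and 1.33 times in FPKM. The limma log2 fold change was 0.33 (SE 0.20, 95% interval -0.12 to 0.79). Group means were 5.00 ± 0.792 FPKM under si-NC and 6.55 ± 0.931 FPKM under si-152 (SD, n = 2). Both si-152 libraries were above both si-NC libraries, as in 16.5% of all genes tested. The difference did not pass the test, and its interval includes 0.

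TAPBP moved the other way. It was lower in si-152 by 0.24 in replicate 1 and by 0.19 in replicate 2 on the log2(FPKM + 1) scale, and both si-152 libraries were below both si-NC libraries, as in 13.9% of all genes tested. Its limma log2 fold change was -0.21 (SE 0.19, 95% interval -0.65 to 0.22), with means of 2.59 ± 0.0494 FPKM under si-NC and 2.10 ± 0.121 FPKM under si-152 (SD, n = 2). The ratio of ERAP1 to TAPBP within a library was 2.17 and 1.69 in si-NC and 3.58 and 2.70 in si-152, so it was higher in both si-152 libraries. That ratio was picked after the values of both genes were seen and was not tested.

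**Figure D4:**
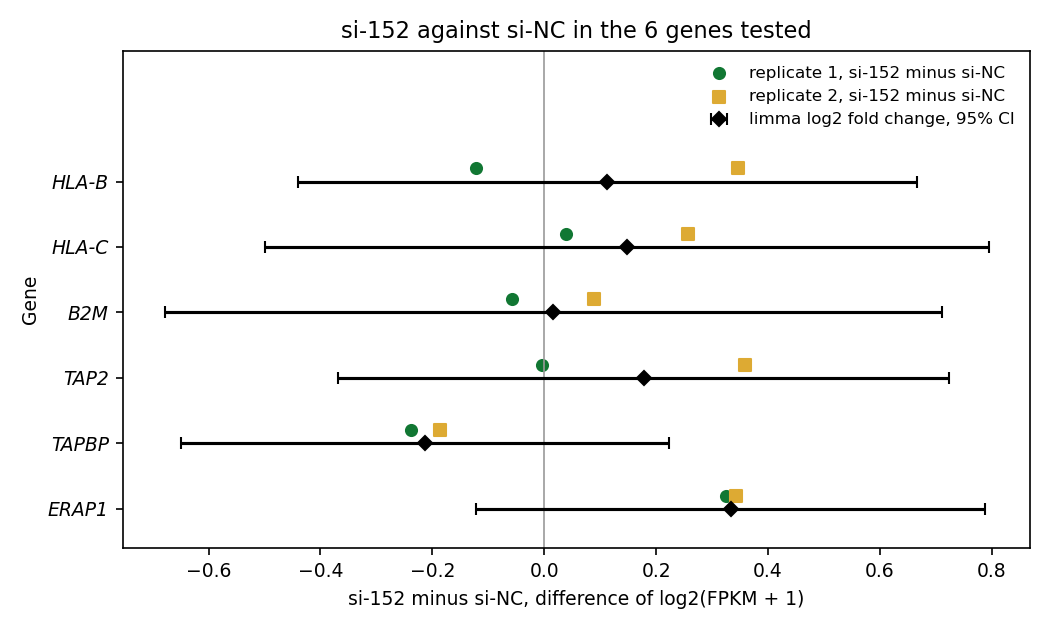
Difference between si-152 and si-NC on the log2(FPKM + 1) scale for the 6 genes tested, as the limma log2 fold change with its 95% interval (black) and as the difference within replicate 1 (green circle) and replicate 2 (yellow square). All 6 intervals include 0; ERAP1 lies at 0.32 and 0.34 in the pairs and TAPBP at -0.24 and -0.19, while HLA-B, B2M and TAP2 have pairs of opposite sign.

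Of the 3 abundant chains, HLA-C alone had the same sign in both pairs. HLA-C was higher in si-152 by 0.039 in replicate 1 and 0.26 in replicate 2, HLA-B was lower by 0.12 in replicate 1 and higher by 0.35 in replicate 2, and B2M was lower by 0.057 and higher by 0.090. The limma log2 fold changes were 0.15 for HLA-C (SE 0.29, 95% interval -0.50 to 0.79), 0.11 for HLA-B (SE 0.25, -0.44 to 0.67) and 0.016 for B2M (SE 0.31, -0.68 to 0.71). As folds of FPKM + 1 these intervals run from 0.708 to 1.73 for HLA-C and from 0.737 to 1.59 for HLA-B. Values inside these intervals were not told apart from no change by this fit. TAP2 differed by -0.0042 in replicate 1 and 0.36 in replicate 2, with a limma log2 fold change of 0.18 (SE 0.24, 95% interval -0.37 to 0.72).

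In all, 2 of the 6 genes, HLA-C and ERAP1, were higher in si-152 in both pairs, against 35.6% of all genes tested, and 1 of the 6, TAPBP, was lower in both pairs, against 27.3%. Neither count is read as a result about these genes. With quantile normalization the count of genes higher in both pairs became 5, TAPBP being the exception, and with size factors it became 3, TAP2 being added. The sign of B2M also depended on the scaling, with a log2 fold change of -0.0034 after scaling by size factors. The median log2 fold change of the 6 was 0.13, and that of all genes 0.019. Without si-152 replicate 1, HLA-C passed the unadjusted threshold with a log2 fold change of 0.55, and without si-152 replicate 2 its value was -0.25.

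For B2M and HLA-C, each difference between replicates was larger than each difference between the siRNAs. For HLA-B this held for the replicates of si-152 only. Its si-NC replicates differed by 0.25 on the log2(FPKM + 1) scale, below the 0.35 between the siRNAs in replicate 2. B2M was 1.62 times as high in replicate 2 as in replicate 1 of si-NC and 1.80 times in si-152. For HLA-C the ratio was 1.50 in si-NC and 1.75 in si-152, and for HLA-B 1.19 and 1.65. TAP2 had 1.28 and 1.81 and TAPBP 1.03 and 1.09. ERAP1 went the other way, at 0.798 in si-NC and 0.817 in si-152. So 5 of the 6 genes were higher in replicate 2 in both groups, which held for 29.4% of all genes tested, while 44.2% were lower in replicate 2 in both.

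This replicate difference moved with transcript length across genes. Over the 10775 genes with a GENCODE length, the Spearman correlation of length with the difference between replicate 2 and replicate 1 was -0.59 in si-NC and -0.63 in si-152. The genes share the libraries, so this is a description. In the 2694 genes of up to 2150 bases the median difference was 0.15 in si-NC and 0.28 in si-152, and in the 2694 genes of 5103 bases or more it was -0.33 and -0.24. HLA-B, HLA-C and B2M have longest transcripts of 1547, 1554 and 1705 bases and differed by 0.25, 0.58 and 0.69 in si-NC and by 0.72, 0.80 and 0.84 in si-152, above the median of genes of their length. ERAP1, with 5495 bases, differed by -0.27 and -0.25, close to the median of its length, and TAP2, with 5684 bases, by 0.24 and 0.60.

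**Figure D5:**
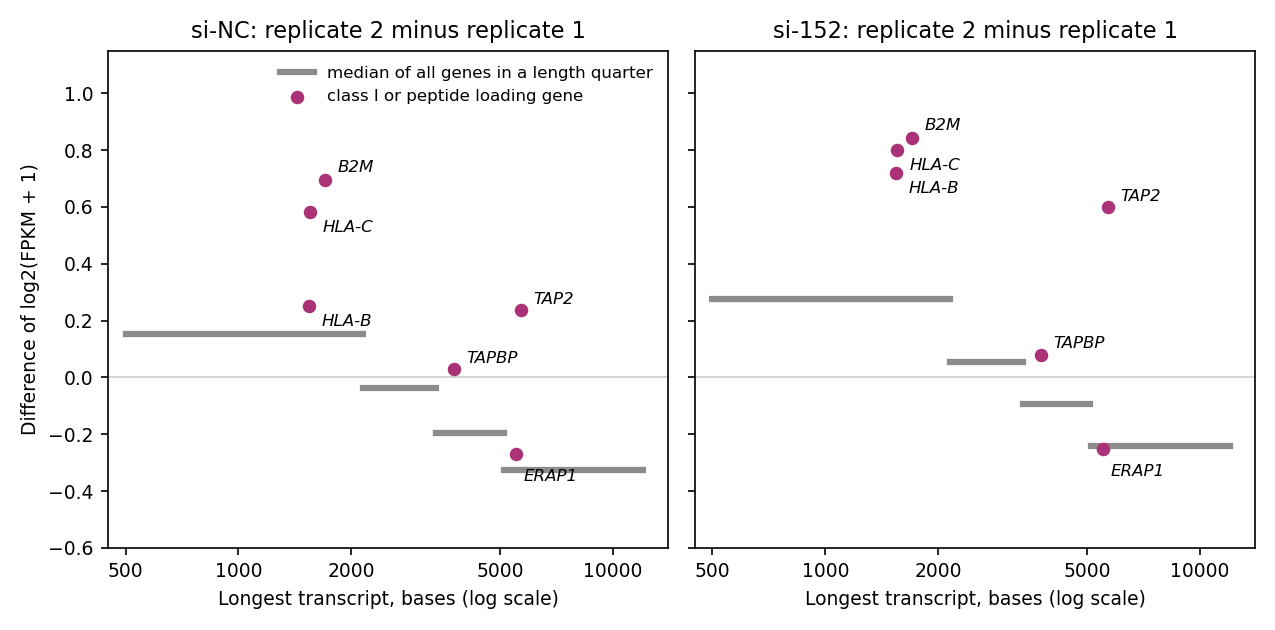
Difference of log2(FPKM + 1) between replicate 2 and replicate 1 of si-NC (left) and si-152 (right) against the longest transcript of each gene in bases (log scale), for the 6 genes tested (purple) and as the median of all genes in 4 length bins of near equal gene number (grey bars; the outer bars are shortened to the plotted range). HLA-B, HLA-C, B2M, TAP2 and TAPBP lie above the bar of their length in both groups, and ERAP1 lies close to it.

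Length went with the siRNA difference as well, more weakly, with a Spearman correlation of 0.24 in both pairs. Genes of 5103 bases or more had a median of 0.031 in replicate 1 and 0.13 in replicate 2, below the 0.32 and 0.34 of ERAP1. Genes of 3367 to 5101 bases had -0.0028 and 0.10, above the -0.24 and -0.19 of TAPBP, whose longest transcript has 3759 bases. The part of length in these differences was not tested.

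The chaperones of the loading complex were abundant, and 0 of the 6 tested passed the unadjusted threshold. CALR, calreticulin, which holds the heavy chain in the loading complex, was listed at 401.1 and 388.7 FPKM under si-NC and at 356.7 and 472.9 FPKM under si-152. CANX, calnexin, which binds newly made heavy chains, stood at 299.8 and 212.7 FPKM against 287.8 and 233.0 FPKM. PDIA3, the disulfide isomerase joined to tapasin, stood at 282.1 and 262.0 FPKM against 217.6 and 253.1 FPKM. Both CALR and CANX overlapped between the groups, and PDIA3 was lower in both si-152 libraries, with a limma log2 fold change of -0.21 (SE 0.20). HSPA5, the chaperone BiP, had the lowest value of the list at -0.26 (SE 0.29), from 1298 and 1177 FPKM to 956.4 and 1109 FPKM, and P4HB, another disulfide isomerase, the highest at 0.18 (SE 0.25), from 629.9 and 653.8 FPKM to 671.5 and 790.6 FPKM. UGGT1, which returns unloaded molecules for refolding, ran from 8.10 to 12.7 FPKM over the 4 libraries. TAPBPL, the tapasin-related peptide editor, was at 0.105 to 0.236 FPKM and was not tested. The list had a median log2 fold change of 0.0052.

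Of the 7 other peptidases that trim or destroy class I peptides, 0 passed the threshold and the median log2 fold change was 0.038. ERAP2, which works beside ERAP1 in the endoplasmic reticulum, was listed at 1.14 and 1.04 FPKM under si-NC and at 1.02 and 1.03 FPKM under si-152, and it had the lowest log2 fold change of the list, -0.044 (SE 0.20). The ratio of ERAP1 to ERAP2 was 4.89 and 4.27 in si-NC and 7.07 and 5.74 in si-152. THOP1, a cytosolic peptidase that destroys peptides, had the highest value, 0.36 (SE 0.17), at 23.9 and 24.7 FPKM under si-NC and 28.3 and 34.8 FPKM under si-152, and its groups did not overlap. The others were cytosolic or endosomal: LNPEP ran from 0.469 to 1.20 FPKM, TPP2 from 6.74 to 9.93, NPEPPS from 29.7 to 40.1, BLMH from 12.5 to 14.1 and NRDC, listed under its older symbol NRD1, from 47.2 to 52.7 FPKM.

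The immunoproteasome is a form of the proteasome with exchanged catalytic subunits that favours class I peptides. Its subunits PSMB8 and PSMB9 lie beside TAP1 and TAP2, and PSMB9 shares its promoter region with TAP1. PSMB8 was at 0 in all 4 libraries and PSMB9 at 0 to 0.158 FPKM. PSMB10, the immunoproteasome subunit encoded on chromosome 16, was listed at 25.2 and 45.0 FPKM under si-NC and at 20.7 and 35.0 FPKM under si-152. The low values thus fell on the subunits of the stretch described above, and PSMB10 had a limma log2 fold change of -0.31 (SE 0.30), the lowest of its list. The subunits of the proteasome activator PA28 had 94.6 to 142.0 FPKM (PSME1) and 100.7 to 158.3 FPKM (PSME2), and the assembly factor POMP 65.1 to 73.6 FPKM. PSME1 was highest of the list, at 0.079 (SE 0.24).

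The constitutive catalytic subunits were higher than PSMB10 in every library. PSMB5 ran from 112.4 to 148.3 FPKM, PSMB6 from 184.1 to 245.6 FPKM and PSMB7, the subunit that PSMB10 replaces, from 130.1 to 187.9 FPKM. The ratio of PSMB10 to PSMB7 was 0.194 and 0.239 in si-NC and 0.158 and 0.212 in si-152, higher in replicate 2 of both groups. In both proteasome lists 0 genes passed the threshold, with median log2 fold changes of -0.048 for the immunoproteasome and activator and -0.047 for the constitutive subunits. Highest and lowest among the constitutive subunits were PSMB5 at 0.0092 (SE 0.20) and PSMB7 at -0.085 (SE 0.23).

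Of 28 regulators of class I transcription and genes of the interferon pathway, all were tested and 0 passed the threshold. ATF1, a factor of the CREB and ATF family, had the highest log2 fold change, 0.38 (SE 0.20), at 9.07 and 6.68 FPKM under si-NC and 10.6 and 10.3 FPKM under si-152. TYK2, a kinase of the type I interferon receptor, had the lowest, -0.23 (SE 0.17), at 15.0 and 16.6 FPKM under si-NC and 13.5 and 13.1 FPKM under si-152. Neither gene overlapped between the groups. In the whole list of 28, 7 genes were above and 2 below without overlap, beside the 16.5% and 13.9% of all genes. In both pairs 12 were higher and 5 lower, beside 35.6% and 27.3% of all genes, and the median was 0.067. These counts are not read as a result about the list. NLRC5, the class I transactivator, was low, at 2.35 and 1.67 FPKM under si-NC and 1.89 and 1.71 FPKM under si-152, and IFNGR2, a chain of the interferon gamma receptor, went in opposite directions in the pairs, from 4.37 to 14.3 FPKM in replicate 1 and from 15.7 to 4.17 FPKM in replicate 2. NLRC5 and IFNGR2 were named after their values were seen.

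Surface class I is removed by a complex of SUSD6, TMEM127 and the ubiquitin ligase WWP2, and SPPL3, AP1M1 and NBR1 act on its display or its degradation by other routes. Of these 6 genes 0 passed the threshold, and 2 ubiquitin ligases of the list were not matched in the tables. SUSD6 had the highest value, a log2 fold change of 0.39 (SE 0.21), at 2.20 and 1.94 FPKM under si-NC and 3.47 and 2.62 FPKM under si-152, without overlap. AP1M1 had the lowest, -0.19 (SE 0.17), at 15.4 and 14.2 FPKM under si-NC and 13.1 and 12.5 FPKM under si-152. TMEM127 ran from 10.8 to 15.1 FPKM, WWP2 from 7.31 to 8.80, SPPL3 from 16.7 to 20.2 and NBR1 from 27.7 to 32.1 FPKM.

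Among 11 class I-like molecules, most of them stress ligands of the natural killer receptor NKG2D, 8 were tested and 0 passed the threshold. The highest was ULBP3 at 0.47 (SE 0.28), listed at 3.67 and 2.40 FPKM under si-NC and 6.22 and 3.22 FPKM under si-152, and the lowest MICA at -0.19 (SE 0.19), at 16.2 and 17.7 FPKM under si-NC and 12.9 and 16.8 FPKM under si-152. Both overlapped between the groups. Of 10 class II genes, whose products present peptides to CD4 T cells, 3 were tested and 0 passed. The invariant chain CD74 had the lowest value, -0.30 (SE 0.37), at 1.63 and 4.76 FPKM under si-NC and 1.37 and 3.21 FPKM under si-152, and the highest of the 3 was HLA-DQB1 at -0.052 (SE 0.22). MICA, MICB and all class II genes of the list but CD74 and CIITA lie in the stretch from HLA-F to TAPBP. Their levels stand under the limit given above for that stretch.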

How the data were processed

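Total RNA of HCT116 cells was sequenced in 2 groups of 2 samples, si-NC and si-152, grouped by the agent in the labels. The authors deposited 1 FPKM value per gene symbol for each library. The unit is read from the values, which carry decimals and exact zeros, and the tool that gave them is not given in the sources used here. The submitters' processing notes name Trimmomatic, TopHat, HISAT2, HTSeq, DESeq and the build GRCh38, without roles. Each table held 19974 rows, of which 28 had date-like symbols and 2 were repeats. Sequencing depth is unknown, so no counting interval is given.

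Genes reaching 1 FPKM in 2 or more libraries entered the test on log2(FPKM + 1), which understates the change of low genes, with limma 3.58.1 (mean-variance trend, R 4.3.3) and Benjamini-Hochberg adjustment over all genes tested. A gene was called at an unadjusted p under 0.05. The fit was tested on simulated data with independent noise in each library. That setting lacks the replicate difference described above, so it does not show how the fit behaves with it. The text names all 9 genes and, from each pathway list, genes with an unadjusted p under 0.05, the largest rise and fall, and every gene of lists of at most 8. The members and lists were chosen with earlier results of these data known. Alternatives were a pseudocount of 0.1, other filters and scalings, no trend, a replicate block and leaving out each library. Gene positions and lengths (longest protein-coding transcript) came from GENCODE release 29 and promoters from RefSeq. P-values set a difference against the spread between these cultures, and limma draws the variance of each gene towards the trend over all genes tested. Without the replicate block that spread includes any difference shared by same-numbered libraries.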

Additional observations from a re-analysis of the deposited data

How the results depend on the processing

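With 2 libraries a group and unknown depth, small changes of these genes could not be detected, and values under 1 FPKM were not tested. The number of class I and peptide loading genes with an unadjusted p under 0.05 was 0 in every setting but these: it was 1 with the replicate block (ERAP1, limma adjusted p = 0.208) and 0 to 1 when a library was left out (HLA-C without si-152 replicate 1). The labels do not say that a number marks a shared batch, and in the labels the number alone links the samples of a pair. Deviations of same-numbered samples from their group means had a Pearson r of 0.52 across 11222 genes. Over all genes, 492 were called, 1893 with the replicate block, 796 without a filter and 301 without si-152 replicate 1. The count of genes higher in both pairs was 2, with 3 after scaling by size factors and 5 after quantile normalization; it has no value when a library is left out, as a pair is then missing. ERAP1 and TAPBP kept their direction in every setting, with 0.20 to 0.47 and -0.25 to -0.17 on the log2 scale when a library was left out. The other 4 genes reversed when a library was left out: HLA-B ran from -0.25 to 0.47, HLA-C from -0.25 to 0.55, B2M from -0.40 to 0.44 and TAP2 from -0.12 to 0.48. B2M also reversed with size factors, to -0.0034. A group left with 1 library is assumed to vary like the other. Limma adjusted p ranged over the settings from 0.208 to 1.00 for ERAP1 and from 0.444 to 1.00 for TAPBP. The pathway lists had 0 calls, and up to 3 in an alternative (interferon pathway list without si-NC replicate 1). The cause of these shifts was not tested.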
